A study of Hordeum vulgare with 10 samples.

Results

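Among the 81 miRNAs predicted in dry barley seeds, 10 formed 5 pairs in which both mature sequences came from the same stretch of the genome. The sequences of a pair differed only by 1 or 2 bases at 1 or both ends. The pairs were hvu-new9 with hvu-new10, hvu-new21 with hvu-new22, hvu-new24 with hvu-new41, hvu-new56 with hvu-new72, and hvu-new61 with hvu-new75. They were chosen by their listed loci, sequences and hairpins from a table of 142 miRNAs that also held 61 known ones. The rule did not use their counts, but earlier results of these data were known when it was set. Small RNA was sequenced from the embryo and scutellum (the shield-shaped seed leaf that lies against the endosperm) of dry seeds of the barley cultivar Damazy. The regenerated control (Rc) came from seeds grown again in the field and not stored. Both stored groups had been kept from 1972 to 2018 and came from separate sealed flasks of the same harvest. In the low-viability group (Lv) 2% of seeds germinated, and in the high-viability group (Hv) about 87%. Each group had 3 libraries made from pooled seeds. The study describes the Lv seeds as moister than the Hv seeds at the end of storage. Storage cannot be told apart from harvest year in these groups, nor viability from flask or moisture.

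A plant miRNA is cut from a hairpin precursor by a Dicer-like nuclease and is loaded into an ARGONAUTE protein, where it pairs along most of its length with a target transcript. The place where the target is cut is counted from the 5′ end of the miRNA, so a shift at that end moves the cut, whereas a base more or less at the 3′ end leaves it in place. In Arabidopsis the first base also directs loading, with U favoured by AGO1, A by AGO2 and C by AGO5. Variants of this kind from a single precursor are called isomiRs.

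The mature sequences are printed because the shift at their ends is what sets the members of a pair apart. They run 5′ to 3′ as DNA letters, with the seed (bases 2 to 8) in capitals. In the first group, hvu-new9 with hvu-new10 and hvu-new21 with hvu-new22, both members began at the same base, and the 22-nt member reached 1 base further at the 3′ end than the 21-nt member.
hvu-new9: aTGGGACTgaagtttacctct
hvu-new10: aTGGGACTgaagtttacctctt
hvu-new21: cTGGCAACaaattagagtctc
hvu-new22: cTGGCAACaaattagagtctct
The seed was thus the same within each of these 2 pairs, TGGGACT in the first and TGGCAAC in the second.

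In the third pair both members ended at the same base, but hvu-new41 (20 nt) lacked the first 2 bases of hvu-new24 (22 nt).
hvu-new24: cTTCCCAAcgggcggtgggcta
hvu-new41: tCCCAACGggcggtgggcta
The first base was therefore C in hvu-new24 and T in hvu-new41, and their seeds differed.

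In the other 2 pairs both members had 21 nt, and the second was shifted 1 base upstream as a whole, which left 20 shared bases.
hvu-new56: tGAGGAAGgactgcatcatct
hvu-new72: tTGAGGAAggactgcatcatc
hvu-new61: tGGACGTGgaggtgcagctgc
hvu-new75: tTGGACGTggaggtgcagctg
All 4 of these sequences began with T, and the shift gave each a seed of its own. Across the 5 pairs, 2 had the same seed in both members and 3 had different seeds. None of these 8 seeds was also the seed of any of the 71 other predicted miRNAs.

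The listed loci lay on 3 chromosomes of the IBSC_v2 barley assembly. The locus of hvu-new9 was chr7H:631163429-631163449 and that of hvu-new10 chr7H:631163429-631163450, both on the plus strand. On the minus strand, hvu-new21 was at chr6H:42339563-42339583 and hvu-new22 at chr6H:42339562-42339583. The remaining 6 members were on the plus strand. The hvu-new24 locus was chr6H:279589720-279589741 and that of hvu-new41 chr6H:279589722-279589741. On 7H, hvu-new56 was at chr7H:653657657-653657677 and hvu-new72 at chr7H:653657656-653657676. On 5H, hvu-new61 was at chr5H:620327681-620327701 and hvu-new75 at chr5H:620327680-620327700. The position of each mature sequence inside its listed hairpin differed from these coordinates by 1 base for all 10 members and for the other predicted loci alike, so positions hold to within 1 base. Which genes or transcripts lie at these loci was not analysed here.

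The hairpins show where on the precursor the members lay. Their shared bases are in capitals, again 5′ to 3′.
hvu-new9+hvu-new10: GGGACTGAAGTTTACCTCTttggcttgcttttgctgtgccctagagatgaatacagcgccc
hvu-new21+hvu-new22: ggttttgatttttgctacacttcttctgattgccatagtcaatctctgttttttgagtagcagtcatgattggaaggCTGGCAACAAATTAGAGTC
hvu-new24+hvu-new41: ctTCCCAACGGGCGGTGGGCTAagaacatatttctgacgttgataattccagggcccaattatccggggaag
hvu-new56+hvu-new72: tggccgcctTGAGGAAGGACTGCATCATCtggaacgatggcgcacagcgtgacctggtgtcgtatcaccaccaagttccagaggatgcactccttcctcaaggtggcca
hvu-new61+hvu-new75: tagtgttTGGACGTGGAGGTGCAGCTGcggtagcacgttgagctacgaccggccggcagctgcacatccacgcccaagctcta
The hvu-new21 and hvu-new22 sequences lay on the 3′ arm, starting at base 78 of 96, and the other 8 members lay on the 5′ arm. In 2 pairs the listed hairpin did not hold the whole mature sequence. For hvu-new9 and hvu-new10 it left out the first 2 bases, and at the 3′ end it left out 2 bases of hvu-new21 and 3 of hvu-new22. Among the 71 other predicted miRNAs, 4 ran beyond their hairpin in this way.

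**Figure D1:**
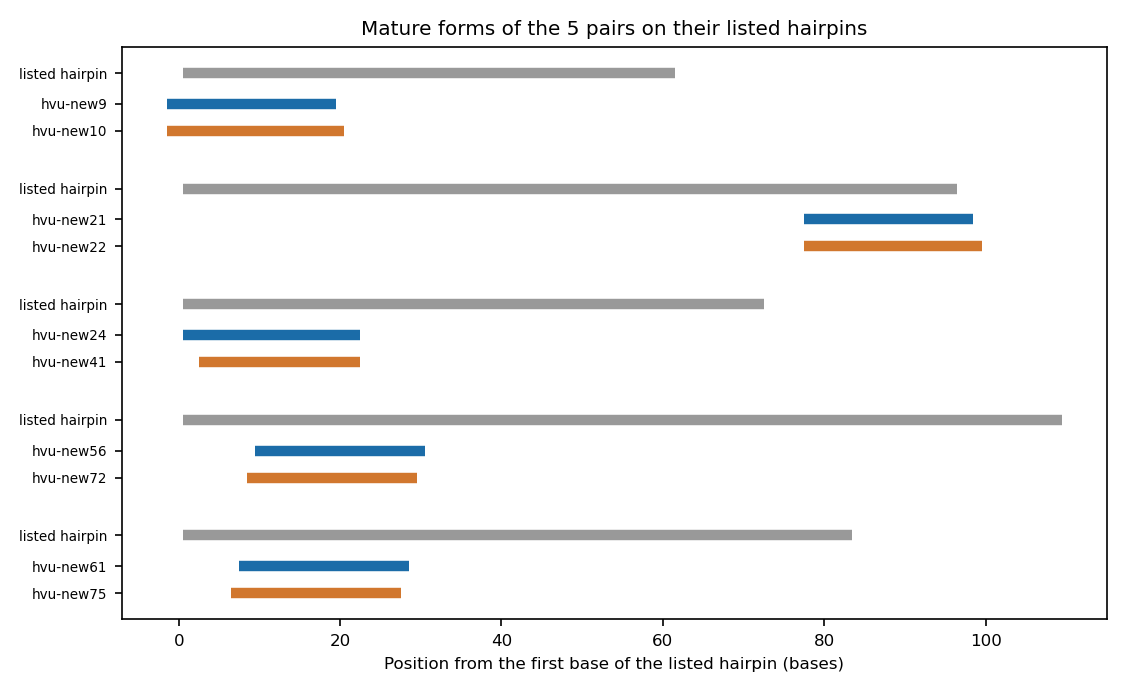
Position of both mature forms of each pair along the listed hairpin, in bases from its 5′ end on the x axis, with the hairpin in grey and 1 coloured bar per member. Members of a pair differ by 1 or 2 bases at 1 or both ends. Those of hvu-new21 and hvu-new22 lie on the 3′ arm, and the bars of 2 pairs run beyond the hairpin.

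Folded with RNAfold, the hairpins of the 3 nested pairs (one member lying wholly within the other) had minimum free energies of −19.1 kcal/mol for hvu-new9 and hvu-new10, −29.2 for hvu-new21 and hvu-new22, and −22.3 for hvu-new24 and hvu-new41. Per 100 bases these were −31.3, −30.4 and −31.0 kcal/mol. The hvu-new56 and hvu-new72 hairpin was more stable per base, at −71.8 kcal/mol in all and −65.9 per 100 bases. For hvu-new61 and hvu-new75, which were listed with hairpins of 71 and 83 bases, it was −58.9 and −58.2 per 100 bases. The nested pairs thus lay near the weak end and the shifted pairs on the stable side of the other predicted miRNAs, whose median was −48.4 with a range of −85.2 to −26.5 kcal/mol per 100 bases. In the folded form 19 of the 21 bases of each of hvu-new56, hvu-new72, hvu-new61 and hvu-new75 were paired, and so were 17 of the 19 bases of hvu-new21 and of hvu-new22 that lay inside their hairpin. In the other nested pairs it was 14 of 19 such bases for hvu-new9, 14 of 20 for hvu-new10, 16 of 22 for hvu-new24 and 14 of 20 for hvu-new41.

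A star sequence, the strand opposite the mature form that Dicer cutting also leaves, was listed for 0 of the 10 members and for 28 of the 71 other predicted miRNAs. All 10 members had a single listed locus, as did 52 of the 71 others. Guanine and cytosine made up 40.9% to 70.0% of the members' bases (median 47.6%), within the 22.7% to 72.7% of the others (median 52.4%). The first base was T in 5 members, C in 3 and A in 2, and in the others it was T in 45, C in 10, A in 9 and G in 7.

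All 10 members were rare. Together they held 147 of the 88504 counts in the table, with 4 to 28 counts per member over the 9 libraries (median 14.5) and no single value above 15. By total they ranked 45th to 78th of the 81 predicted miRNAs. Library totals ran from 3966 to 19542 counts, so the members' share of a library was 0.0479% to 0.407%. The totals include 5 predicted miRNAs, none a member, whose counts repeated those of a known miRNA, equal or 4 times as high, in at least 6 libraries. Without these 5, which held 49531 counts, the share was 0.113% to 0.858%. A member was listed, that is, had a count above 0, in 35 of the 90 combinations of member and library and stood at 0 in the other 55. None was listed in all 9 libraries, whereas 14 of the 81 predicted miRNAs were.

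A count of 0 for a predicted miRNA is a sequence that was not listed for that library. The smallest count above 0 was 2 for the predicted miRNAs and 1 for the known ones. Among the 21 predicted miRNAs whose median count where listed was at least 20, 9 stood at 0 in at least 2 libraries, compared with 0 of the 12 known miRNAs of that level. A fitted log2 difference from a group in which a sequence was not listed rests on the prior count that stands in for 0. Such values are not used here as sizes of a difference, and a 0 is not read as absence of the RNA.

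The members of a pair were seldom listed together. Of the 45 combinations of pair and library, 32 listed at least 1 member, 29 listed just 1, and 3 listed both. The 3 were hvu-new9 with hvu-new10 in Rc replicate 3 and in Lv replicate 3, and hvu-new61 with hvu-new75 in Rc replicate 3. By group, both members were listed in 2 combinations of Rc, 1 of Lv and 0 of Hv. The Rc replicate 3 library had the largest total and listed 6 members, and without it 1 combination of 40 held both. The pairs hvu-new21 with hvu-new22, hvu-new24 with hvu-new41, and hvu-new56 with hvu-new72 were never listed together. Both members were present in 9.38% of the combinations with any. For the 7 other pairs of predicted miRNAs with overlapping loci it was 25.5% (13 of 51). Those 7 pairs were made of only 9 miRNAs, so some sequences count in more than 1 pair. Their median total per pair was 271 counts against 30 here, and the part of depth in this difference was not tested.

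**Figure D2:**
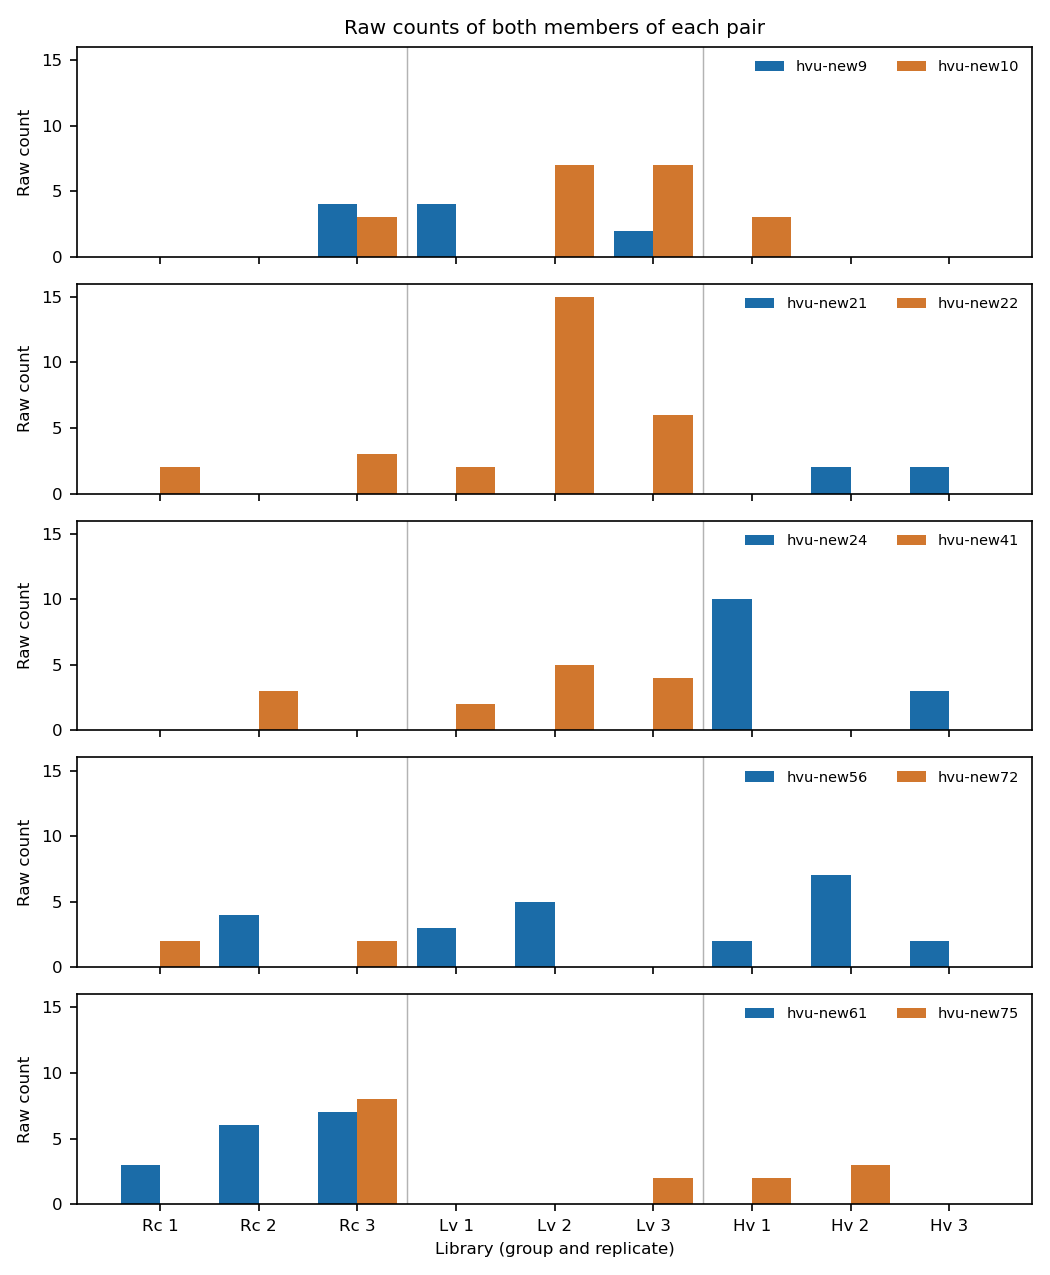
Raw counts (y axis) of both members of each pair in each of the 9 libraries (x axis, Rc, Lv and Hv replicates 1 to 3), 1 panel per pair and 1 colour per member. The tallest bar is 15 counts of hvu-new22 in Lv replicate 2, and both members stand above 0 in 3 of the 45 places.

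In the hvu-new9 and hvu-new10 pair, the longer form was listed in more libraries. The 21-nt hvu-new9 had counts of 0, 0 and 4 in Rc replicates 1 to 3, 4, 0 and 2 in Lv, with 0, 0 and 0 in Hv. The 22-nt hvu-new10 had 0, 0 and 3 in Rc, 0, 7 and 7 in Lv, with 3, 0 and 0 in Hv. At least 1 of them was thus listed in all 3 Lv libraries and in 1 library each of Rc and Hv. Summed over the pair and expressed as CPM (counts relative to the library's total in the table, with TMM scaling), the locus gave 0, 0 and 414 in Rc, 864, 698 and 844 in Lv, with 657, 0 and 0 in Hv. The Lv libraries were the highest 3 of the 9, with a mean of 802 ± 90.7 CPM (SD, n = 3) compared with 219 ± 379 in Hv and 138 ± 239 in Rc. The Hv value rested on 3 counts in a single library, and scaled to plain totals that library overlapped with Lv.

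In the hvu-new21 and hvu-new22 pair, the forms were listed in different groups. The 22-nt hvu-new22 had 2, 0 and 3 counts in the Rc libraries, 2, 15 and 6 in Lv, with 0, 0 and 0 in Hv. The 21-nt hvu-new21 had 0, 0 and 0 in Rc, 0, 0 and 0 in Lv, with 0, 2 and 2 in Hv. The short form was thus listed in 2 Hv libraries only, each with 2 counts, and the long form in Rc and Lv only. As a sum the locus gave 244, 0 and 177 CPM in Rc, 432, 1495 and 562 in Lv, with 0, 207 and 157 in Hv. Every Lv library was above every Hv library, with means of 830 ± 580 and 121 ± 108 CPM (SD, n = 3), while Rc, at 140 ± 126, overlapped with Hv.

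In the hvu-new24 and hvu-new41 pair, which differ at the 5′ end, the longer form was listed only in Hv. The counts of hvu-new24 were 0, 0 and 0 in Rc, 0, 0 and 0 in Lv, with 10, 0 and 3 in Hv. Those of hvu-new41 were 0, 3 and 0 in Rc, 2, 5 and 4 in Lv, with 0, 0 and 0 in Hv. The form that begins with C was thus listed in 2 Hv libraries, and the form that begins with T in all Lv libraries and 1 Rc library. The sum was 0, 394 and 0 CPM in Rc, 432, 498 and 375 in Lv, with 2190, 0 and 236 in Hv. Here the Hv libraries lay both above and below all Lv libraries, and the means were 131 ± 227 in Rc, 435 ± 61.8 in Lv and 809 ± 1202 in Hv (SD, n = 3).

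In the hvu-new56 and hvu-new72 pair, counts were spread over all groups. The downstream form hvu-new56 had 0, 4 and 0 counts in the Rc libraries, 3, 5 and 0 in Lv, with 2, 7 and 2 in Hv. The upstream form hvu-new72 had 2, 0 and 2 in Rc and 0 in each of the 6 stored libraries. It was listed in exactly the Rc libraries that did not list hvu-new56, each time with 2 counts, the smallest value the predicted miRNAs had. The locus as a whole was listed in 8 of the 9 libraries, at 244, 525 and 118 CPM in Rc, 648, 498 and 0 in Lv, with 438, 723 and 157 in Hv. All groups overlapped, with means of 296 ± 208, 382 ± 339 and 439 ± 283 CPM (SD, n = 3).

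In the hvu-new61 and hvu-new75 pair, the downstream form was listed only in the control. The counts of hvu-new61 were 3, 6 and 7 in Rc and 0 in each of the 6 stored libraries. Those of hvu-new75 were 0, 0 and 8 in Rc, 0, 0 and 2 in Lv, with 2, 3 and 0 in Hv. The locus was thus still listed in 3 stored libraries, under the form that starts 1 base upstream. The sum was 366, 787 and 887 CPM in Rc, 0, 0 and 187 in Lv, with 438, 310 and 0 in Hv. The Rc mean of 680 ± 277 was above those of Lv (62.5 ± 108) and Hv (249 ± 225; SD, n = 3), but Hv replicate 1 was above Rc replicate 1. Scaled to mapped reads instead, all Rc libraries were above all stored ones, as for 6 of the 96 miRNAs and sums tested (6.25%), and that scaling lowered stored seeds relative to Rc in general.

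**Figure D3:**
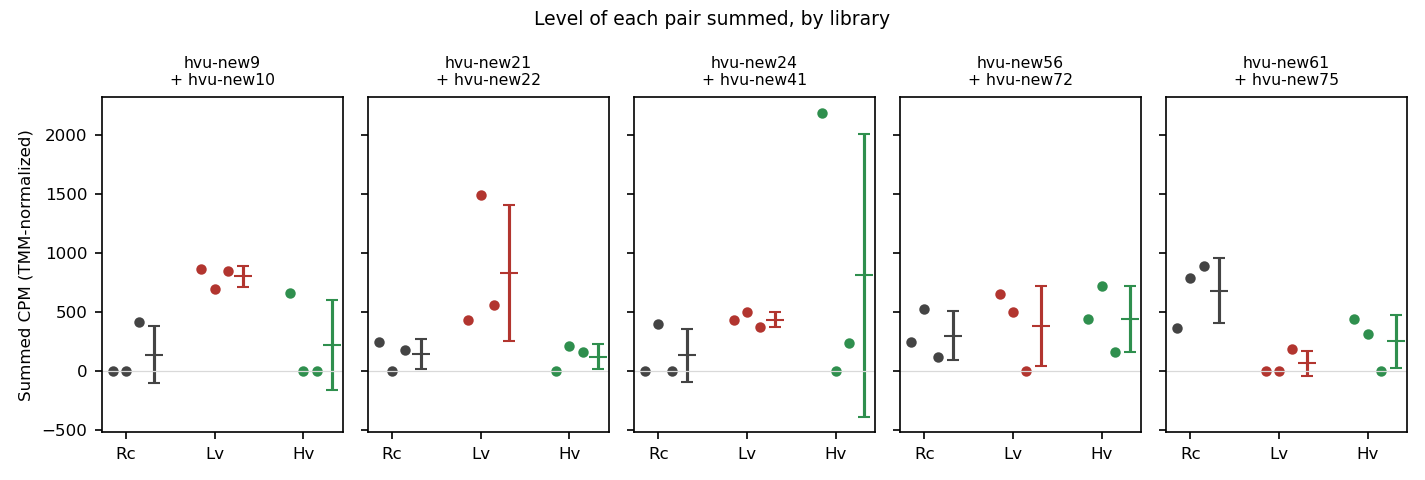
Summed abundance of each pair (y axis, CPM with TMM scaling) in Rc, Lv and Hv (x axis), with 1 point per library and the mean ± SD (n = 3) beside them. For hvu-new21+hvu-new22 all Lv points are above all Hv points, and the Hv point of hvu-new24+hvu-new41 at 2190 CPM stands apart.

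The first comparison asked whether stored seeds (mean of Lv and Hv) differed from Rc. Of the 10 members, 8 had the 10 counts over all libraries that were required for a test, and hvu-new21 and hvu-new72 did not. By edgeR's quasi-likelihood test with Benjamini-Hochberg adjustment over 99 miRNAs, 0 of the 8 passed an adjusted p of 0.05, as did 0 (0%) of all 99. At an unadjusted p under 0.05 there were 10 of 99 (10.1%), among them 1 member, hvu-new61. DESeq2 called 3 miRNAs, none of them a member. The adjusted p of hvu-new61 was 0.210 in edgeR, and no lower than 0.162 under any alternative. Its Rc libraries were all above the stored ones, as were those of 3 of 99 miRNAs (3.03%), and in no tested miRNA were they all below. No fold change is given, since the stored libraries did not list it.

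The members listed in all groups gave wide intervals. On the log2 scale hvu-new10 was higher in stored seeds by 1.86 (SE 1.85, 95% interval −2.33 to 6.05, adjusted p = 0.764 in edgeR). Its Hv counts were all in replicate 1 and its Rc counts in replicate 3, without either of which no size can be given. For hvu-new56 the log2 difference was 1.27 (SE 1.55) with an adjusted p of 0.797, and for hvu-new75 it was −0.36 (SE 1.67) with an adjusted p of 0.973 by the same test. The 95% intervals of all 3 included 0. The Rc counts of hvu-new56 were all in replicate 2. Those of hvu-new75 were all in Rc replicate 3, and its Lv counts were all in Lv replicate 3. For these members too, no size can be given without the library named. The other 4 members tested had a stored group without any listing, so no size is given for them.

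Tested as sums, the 5 loci could be compared in every group. In edgeR 0 of the 5 sums and 0 of all 96 entries (0%) passed, and at an unadjusted p under 0.05 there were 11 of 96 (11.5%), none of them a pair. DESeq2 called 3 entries, none of them a pair. The largest of the 5 differences relative to its error was the lower level of hvu-new61+hvu-new75 in stored seeds, at −2.28 on the log2 scale (SE 1.23, 95% interval −5.08 to 0.52, adjusted p = 0.531 in edgeR). The Lv counts of this sum were all in Lv replicate 3, and without that library no size can be given.

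The other 4 sums were higher in stored seeds on the log2 scale, each by less than 2 standard errors. The difference was 2.18 (SE 1.65) for hvu-new24+hvu-new41, whose Rc counts were all in replicate 2, with an adjusted p of 0.720 in edgeR. The Hv mean of that sum, 809 CPM, included 2190 CPM in Hv replicate 1. For hvu-new21+hvu-new22 the difference was 1.18 (SE 1.10), also with an adjusted p of 0.720. It came from Lv, with a mean of 830 CPM, since Hv at 121 was not above Rc at 140. For hvu-new9+hvu-new10 the difference was 1.16 (SE 1.56, adjusted p = 0.851), and this rested on Hv replicate 1 and Rc replicate 3, the only listings in their groups. The hvu-new56+hvu-new72 sum differed least, by 0.46 (SE 1.13, adjusted p = 0.931). The median of the 5 sums was 1.16, beside −0.19 over all 96 entries, of which 36 were above 0. With library sizes from mapped reads both medians moved down, to 0.71 and −0.48, and the direction of each sum stayed as it was.

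The second comparison set Lv against Hv, which had been stored equally long and differed in germination. In edgeR 0 of the 7 members with counts in either group passed, as did 0 of 99 miRNAs (0%), and DESeq2 called 0. At an unadjusted p under 0.05 there were 5 of 99 (5.05%), and 2 were members. These were hvu-new22 and hvu-new41, each with an adjusted p of 0.670 and both listed in all Lv and no Hv libraries. Their Lv libraries were all above those of Hv, which held for 5 of 99 miRNAs (5.05%), and 8 of 99 (8.08%) were without overlap in either direction. The adjusted p of hvu-new22 was 0.107 in DESeq2, and over all its alternatives it ran from there to 1.

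Each of these members had a partner with counts in Hv. The 2 hvu-new21 counts in each of 2 Hv libraries narrowed the difference at the hvu-new22 locus, and the 13 hvu-new24 counts in Hv outweighed the 11 of hvu-new41 in Lv. For hvu-new21+hvu-new22 the log2 difference of Lv from Hv was 2.53 (SE 1.23, 95% interval −0.28 to 5.33), with an adjusted p of 0.818 in edgeR. For hvu-new24+hvu-new41 it was −0.78 (SE 1.67, 95% interval −4.58 to 3.03, adjusted p = 0.980), opposite in direction to hvu-new41 alone, and without Hv replicate 1 it was 1.71.

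The 95% intervals of the other 3 sums included 0 as well. The log2 difference of Lv from Hv was 2.14 (SE 1.74, adjusted p = 0.980) for hvu-new9+hvu-new10, −1.49 (SE 1.68, adjusted p = 0.980) for hvu-new61+hvu-new75 and −0.25 (SE 1.29, adjusted p = 1) for hvu-new56+hvu-new72, all by edgeR. The Lv counts of hvu-new61+hvu-new75 were all in replicate 3, and the Hv counts of hvu-new9+hvu-new10 all in replicate 1. Without these libraries no size can be given for the 2 sums. Over the pairs 2 sums were above 0 and 3 below, with a median of −0.25 beside −0.06 over all 96. At an unadjusted p under 0.05 there were 3 of 96 entries (3.12%) and 0 of the 5 sums, and DESeq2 called 0. Every Lv library was above every Hv library for 4 of 96 entries (4.17%), among them hvu-new9+hvu-new10 and hvu-new21+hvu-new22, and 8 of 96 (8.33%) were without overlap in either direction.

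**Figure D4:**
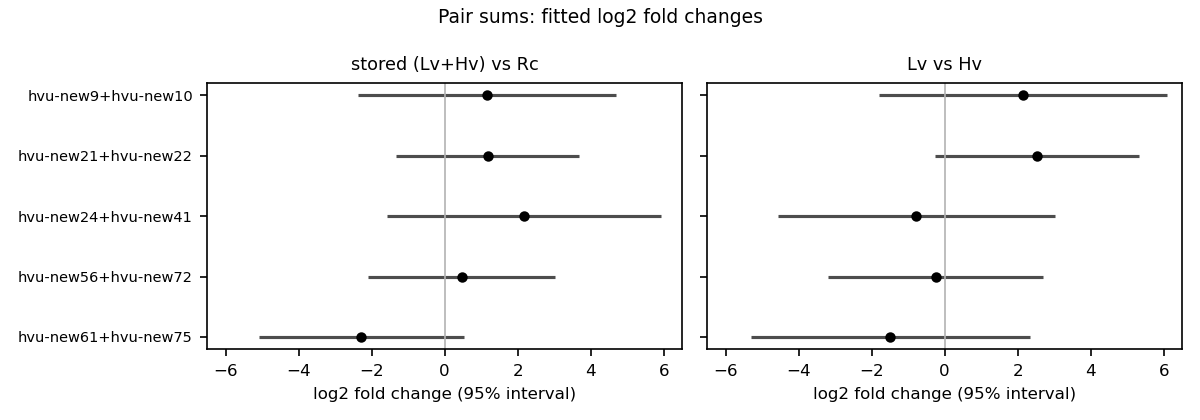
Log2 difference of each pair sum (x axis) for stored against Rc and for Lv against Hv, 1 row per pair. The 95% intervals were computed from the fitted means and dispersion of edgeR. All 10 intervals include 0.

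The sequencing run moved with the groups. Rc replicates 2 and 3 and Hv replicates 1 and 2 were in run 1, all Lv libraries and Hv replicate 3 in run 2, and Rc replicate 1 in both. Within run 1, hvu-new61 had 6 and 7 counts in Rc and 0 and 0 in Hv, and the hvu-new61+hvu-new75 sum was 787 and 887 CPM in Rc compared with 438 and 310 in Hv. Within run 2, hvu-new22 had 2, 15 and 6 counts in Lv and 0 in the Hv library, and its pair sum was 432, 1495 and 562 CPM compared with 157. Both differences were in the same direction within a run, over 2 against 2 and 3 against 1 libraries. For hvu-new61, hvu-new22 and the hvu-new22 pair sum the compared groups did not overlap over all libraries. Their direction within a run was thus given in advance. The hvu-new61+hvu-new75 sum overlapped only through Rc replicate 1, which is left out of the run 1 values. Neither difference was tested within a run. The run was also added as a covariate, without Rc replicate 1. The fitted stored difference of hvu-new61+hvu-new75 was then 0.19 in place of −2.28 on the log2 scale. That fit compared Lv with Rc only through Hv, and the only Hv library in run 2 had 0 counts of this sum. The 0.19 is therefore set by the prior count and is no size of a difference.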

How the data were processed

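Small RNA of 9 libraries (3 each of Rc, Lv and Hv) was sequenced by the authors, who removed adapters and tRNA and rRNA matches, mapped the reads to the barley genome (IBSC_v2), counted known miRNAs with miRProf against miRBase and predicted others with miRCat. The values used were the raw counts per miRNA and library deposited by the authors, which are not normalized. The 9 normalized columns and the columns of the authors' own DESeq2 comparison (fold changes, dispersions and p-values) were not used. Sequences, loci and hairpins were the authors' listed ones. The members and lists were chosen with earlier results of these data known.

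edgeR 4.0.16 (R 4.3.3) was run with TMM on miRNAs with at least 10 counts over all libraries, with 1 mean per group, once with the members as listed (99 tested) and once with each pair summed (96 tested). The quasi-likelihood test was two-sided with Benjamini-Hochberg adjustment at 0.05. Standard errors and intervals came from the fitted means and the dispersion. The scripts were tested on simulated data. DESeq2 1.42.0 was an alternative, as were other scalings (mapped reads of each library among them), filters, run or replicate number as a covariate, and leaving out each library. Hairpins were folded with RNAfold 2.7.2. All 10 members and all 5 sums are named. Replicates were pools of seeds of 1 flask or harvest, so p-values measure the spread between pools. Counts of 2 to 15 limit precision throughout, and reads carried no molecular identifiers. The share without repeated miRNAs was added after seeing the data. Targets were not analysed here.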

Additional observations from a re-analysis of the deposited data

Results flagged for a closer look

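The summed abundance of hvu-new24+hvu-new41 in Hv replicate 1 stood apart from the other 5 stored libraries. It was 2190 CPM, made up of 10 counts of hvu-new24, and the next library, Lv replicate 2, had 498 CPM. The gap was 0.772 of the whole range, above the 95% critical value of Dixon's test for 6 samples. Of the 5 sums tested in this way it was the only one above that value, with hvu-new21+hvu-new22 in Lv replicate 2 just below it at 0.624, and chance flags about 1 group in 20.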

How the results depend on the processing

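Over 25 combinations of a member or sum and a comparison, 459 alternative values were computed. None was called, 438 kept their direction and 21 reversed it, and the cause was not tested. The 438 include hvu-new9, hvu-new22, hvu-new24 and hvu-new41 in Lv against Hv, and hvu-new24 and hvu-new61 in stored against Rc. In these a compared group was at 0, which all but fixed the direction. The number of miRNAs called in stored against Rc, members alone or pairs summed, was 2 with no filter and 3 with DESeq2 in place of 0. Leaving out 1 library gave 0 to 1 calls in each of the 4 tests, none a member. These were hvu-new2 without Hv replicate 1 and hvu-new49 without Hv replicate 2 in stored against Rc, and hvu-new28 without Lv replicate 3 and hvu-new69 without Hv replicate 3 in Lv against Hv. At least 1 member was listed in 21 of 45 combinations instead of 32 when 3 counts were required, and both members in 1 to 3 when an Rc library was left out (a choice made after seeing the data).

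Reversed log2 differences of stored from Rc with DESeq2 were 0.37 for hvu-new9 and 0.066 for hvu-new22, and with stored libraries as 1 group 0.66 for hvu-new9, 1.54 for hvu-new22 and 0.83 for hvu-new41. The DESeq2 values, and the main values of these 3, involve a group at 0 and are no sizes of a difference. With run as a covariate hvu-new75 became 1.92 and hvu-new61+hvu-new75 0.19. In Lv against Hv with this covariate, hvu-new56 became 1.16, hvu-new75 2.75, hvu-new24+hvu-new41 0.84, hvu-new56+hvu-new72 1.14 and hvu-new61+hvu-new75 2.72. The values of hvu-new75 and of its sum are also set by the prior count, since the only Hv library in run 2 listed neither form. Leaving out 1 library gave stored differences of −0.080 to 4.33 for hvu-new10, −1.44 to 2.57 for hvu-new41 and −0.75 to 4.68 for hvu-new9+hvu-new10, all 6 of them with a group at 0 and so set by the prior count, and Lv differences of −0.76 to 0.43 for hvu-new56, −1.31 to 1.71 for hvu-new24+hvu-new41 and −0.67 to 0.43 for hvu-new56+hvu-new72.

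With the replicate block 0 miRNAs were called in each of the 4 tests, and hvu-new75 in stored against Rc became 0.52. The numbers did not pair the samples: correlations of same-numbered libraries ran from −0.23 to 0.19, 2 of 9 were over 0.1, and 3 of 9 libraries correlated best with their own number.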
